A study of Mus musculus with 34 samples.

Results

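The comparison set 7 Hypo+ arrays against 10 Hyper arrays, 17 of the 34 arrays of the series, to ask how the livers of 2 groups of pups differed 4 h after both had received thyroid hormone. All pups were C57BL/6 mice killed at postnatal day (PND) 15, and each array compared the liver RNA of 1 pup (Cy5) with a universal mouse reference RNA (Cy3). Hyper pups (5 males and 5 females) had untreated dams and received i.p. 50 µg of thyroxine (T4) and 5 µg of triiodothyronine (T3) per 100 g body weight. Hypo+ pups (4 males and 3 females) had dams given methimazole (0.05%) and perchlorate (1%) in the drinking water for 3 days, and received 20 µg of T4 and 2 µg of T3 per 100 g. The T4 dose of Hyper was therefore 2.5 times that of Hypo+, and only Hypo+ pups had the goitrogens, so that dose and goitrogen history cannot be told apart. Members were chosen by the arrays' titles, which give a code for the treatment group and the animal number. The other arrays, used here for the shared estimate of spread and as levels to read beside, came from 8 Control and 9 Hypo pups, both injected with saline, the latter after the same goitrogens. By the study's methods the Hypo+ group was limited to injected goitrogen pups whose serum T4 was near or slightly above control, so its make-up had been set by a measurement. Litters are not labelled. If the first 2 digits of the animal numbers mark them, Hypo+ pups came from 5 litters and Hyper pups from 6, and no litter held both.

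T4 is converted to T3, which binds nuclear receptors that switch target genes on or off; in liver these include genes of fat and cholesterol synthesis and of bile acid production. Methimazole blocks hormone synthesis in the thyroid and perchlorate blocks the uptake of iodide. The marker genes of the comparison, Gstm1 and Gstm3, encode mu-class glutathione S-transferases, which couple glutathione to reactive compounds. Members of this family are known targets of NRF2, a transcription factor held in check by Keap1 and released by electrophiles or oxidants, and NRF2 acts through antioxidant response elements in DNA.

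The genes Gstm1 to Gstm7 lie side by side on chromosome 3 (GRCm38.p6, from 107895854 to 108045179). Gstm1 spans chr3:108012250-108017973 and Gstm3 chr3:107963696-107969174, both on the minus strand. The 250 bases before the outermost RefSeq start are printed 5′ to 3′ for these genes, which had the smallest adjusted p between the groups, and for Pir, which tracked them, with matches to the antioxidant response element core TGACNNNGC on either strand in capitals. The windows are chr3:108017974-108018223 for Gstm1, chr3:107969175-107969424 for Gstm3 and chrX:164269181-164269430 (plus strand) for Pir.
Gstm1: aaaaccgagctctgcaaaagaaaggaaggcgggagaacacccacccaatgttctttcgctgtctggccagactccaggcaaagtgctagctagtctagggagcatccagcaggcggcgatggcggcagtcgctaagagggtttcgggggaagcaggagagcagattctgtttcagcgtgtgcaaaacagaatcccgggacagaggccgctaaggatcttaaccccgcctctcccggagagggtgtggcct
Gstm3: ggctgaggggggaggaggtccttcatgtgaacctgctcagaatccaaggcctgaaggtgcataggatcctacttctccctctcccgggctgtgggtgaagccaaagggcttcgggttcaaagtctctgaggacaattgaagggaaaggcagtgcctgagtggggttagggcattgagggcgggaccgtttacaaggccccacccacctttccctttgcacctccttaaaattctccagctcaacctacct
Pir: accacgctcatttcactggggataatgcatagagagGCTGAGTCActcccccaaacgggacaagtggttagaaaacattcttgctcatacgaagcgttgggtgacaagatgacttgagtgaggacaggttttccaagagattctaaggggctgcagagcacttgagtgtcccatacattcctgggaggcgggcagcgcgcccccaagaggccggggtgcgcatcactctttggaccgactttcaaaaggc

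The Pir window held 1 match, 214 to 206 bases before the start, and the windows of Gstm1 and Gstm3 held none. Among the glutathione S-transferases and NRF2 targets described below, 3 of the 16 called genes with a RefSeq promoter window held the letters (18.8%; Abcc4, Mgst1 and Txnrd1), as did 9 of the 26 that were not called (34.6%) and 11.5% of 27025 genes. For the interferon-responsive genes, which were lower in Hypo+, the windows of Gbp2 (chr3:142620413-142620662, plus strand) and Isg15 (chr4:156200819-156201068, minus strand) are printed with matches to the interferon-stimulated response element core (GAAA, any 2 bases and GAAA again, on either strand) in capitals.
Gbp2: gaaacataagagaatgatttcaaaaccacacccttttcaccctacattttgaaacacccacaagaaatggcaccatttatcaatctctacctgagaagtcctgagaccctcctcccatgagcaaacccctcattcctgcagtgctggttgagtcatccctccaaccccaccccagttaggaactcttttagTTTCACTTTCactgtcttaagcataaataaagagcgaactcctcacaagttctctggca
Isg15: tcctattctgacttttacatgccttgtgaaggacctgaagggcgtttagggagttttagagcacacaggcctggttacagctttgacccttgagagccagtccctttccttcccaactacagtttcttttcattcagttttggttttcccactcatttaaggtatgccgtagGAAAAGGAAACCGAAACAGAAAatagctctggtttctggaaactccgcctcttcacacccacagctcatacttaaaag

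Gbp2 held 1 match, 59 to 50 bases before its start, and Isg15 held 3 that overlap. The letters were in 7 of 11 called interferon-responsive genes (63.6%), in 6 of 9 that were not called (66.7%) and in 3.46% of 27025 genes. Such a match describes the letters of the window only, and the share was no higher in called than in other members for either motif.

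Levels are given as the log2 ratio of pup to reference and differences as Hypo+ minus Hyper on that log2 scale, so that a positive difference means a higher level in Hypo+. Of 33236 genes, 1394 were called (4.19%), which means that at least 1 of their probes had an adjusted p under 0.05 (limma, adjusted by Benjamini-Hochberg across 41174 probes). Of these, 554 were higher in Hypo+ (1.67% of genes) and 840 were lower (2.53%). These shares count all 33236 genes, of which 23814 had their brightest probe well above background on at least 50% of the 17 arrays. In the list of NRF2 targets below, 26 of 27 did. Most differences were small: the median size was 0.30 over the called probes, and 11 genes differed more than 2-fold, 6 higher and 5 lower in Hypo+. Dmbt1, described further on, had the largest difference of all. The called genes higher in Hypo+ included glutathione S-transferases and NRF2 targets, and those lower in Hypo+ included genes of DNA replication, cholesterol synthesis and interferon response. The number of calls depended on the normalization, on single arrays and on the slides. With arrays centred on their median in place of loess it was 16. With fewer arrays it was 2 in males alone and 35 in females alone. It was 643 without Hypo+ female 601, 766 without Hypo+ male 761 and 926 without Hyper male 864, and it was 70 within the 5 slides that held 1 array of each group.

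**Figure D1:**
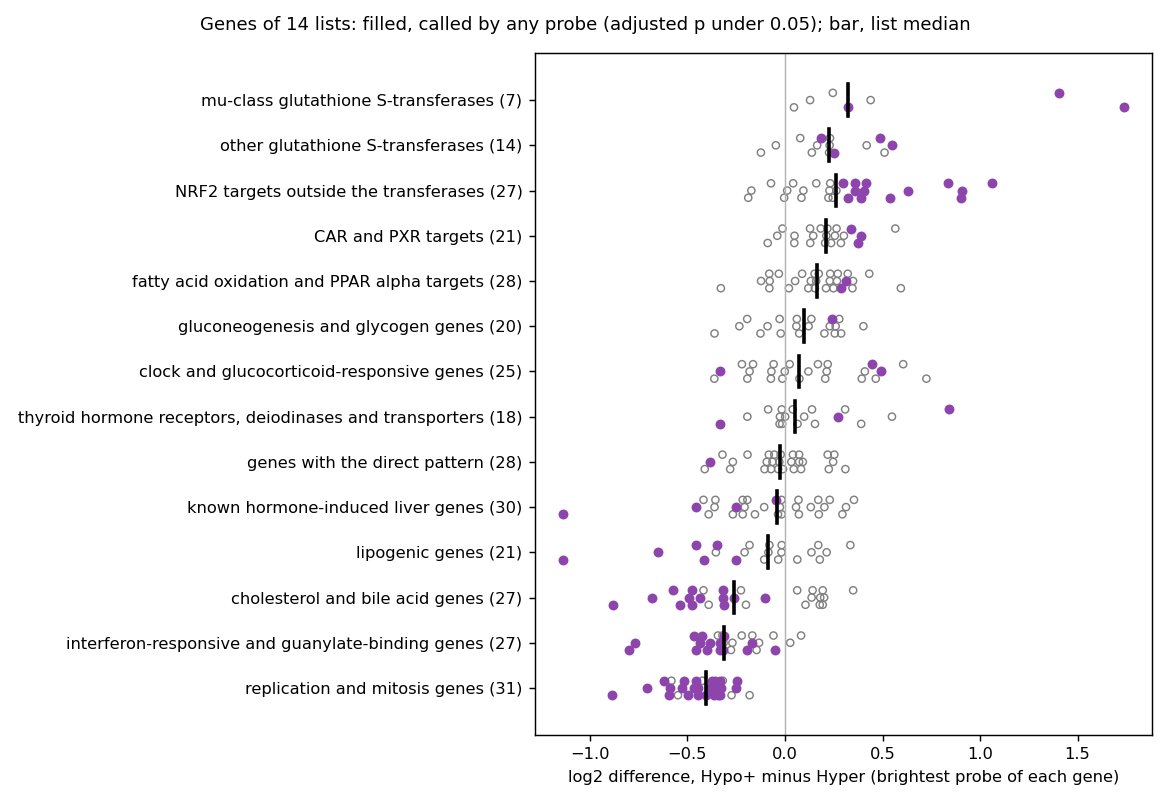
Log2 difference (Hypo+ minus Hyper) of each gene in 14 lists, 1 point per gene from its brightest probe, filled where any probe of the gene was called, with a bar at the list's median. The replication list sits wholly below 0 with a median of -0.41, and the mu-class and NRF2 lists have medians of 0.32 and 0.26.

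Gstm1 and Gstm3 shared the smallest adjusted p of all genes. The level of Gstm1 was 3.32 to 4.02 in Hypo+ (median 3.66) and 1.62 to 2.35 in Hyper (median 1.82), so that every Hypo+ array lay above every Hyper array. The mean was 3.65 ± 0.25 (SD, n = 7) against 1.91 ± 0.25 (SD, n = 10), a difference of 1.74 (SE 0.13; 3.34-fold; adjusted p = 1.14e-10). Gstm3 was 2.94 to 3.50 in Hypo+ (median 3.32) and 1.66 to 2.21 in Hyper (median 1.88), again without overlap. Its difference was 1.41 (SE 0.10; 2.65-fold; adjusted p = 1.14e-10). A second probe of Gstm1 differed by 1.17 (adjusted p = 9.28e-10). On the 5 slides that carried both groups, Gstm1 was higher in the Hypo+ array 5 of 5 times, by 1.29 to 1.92, and Gstm3 5 of 5 times, by 1.07 to 1.43. Both genes were called under each of 18 alternatives of processing and with each of the 17 arrays left out.

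**Figure D2:**
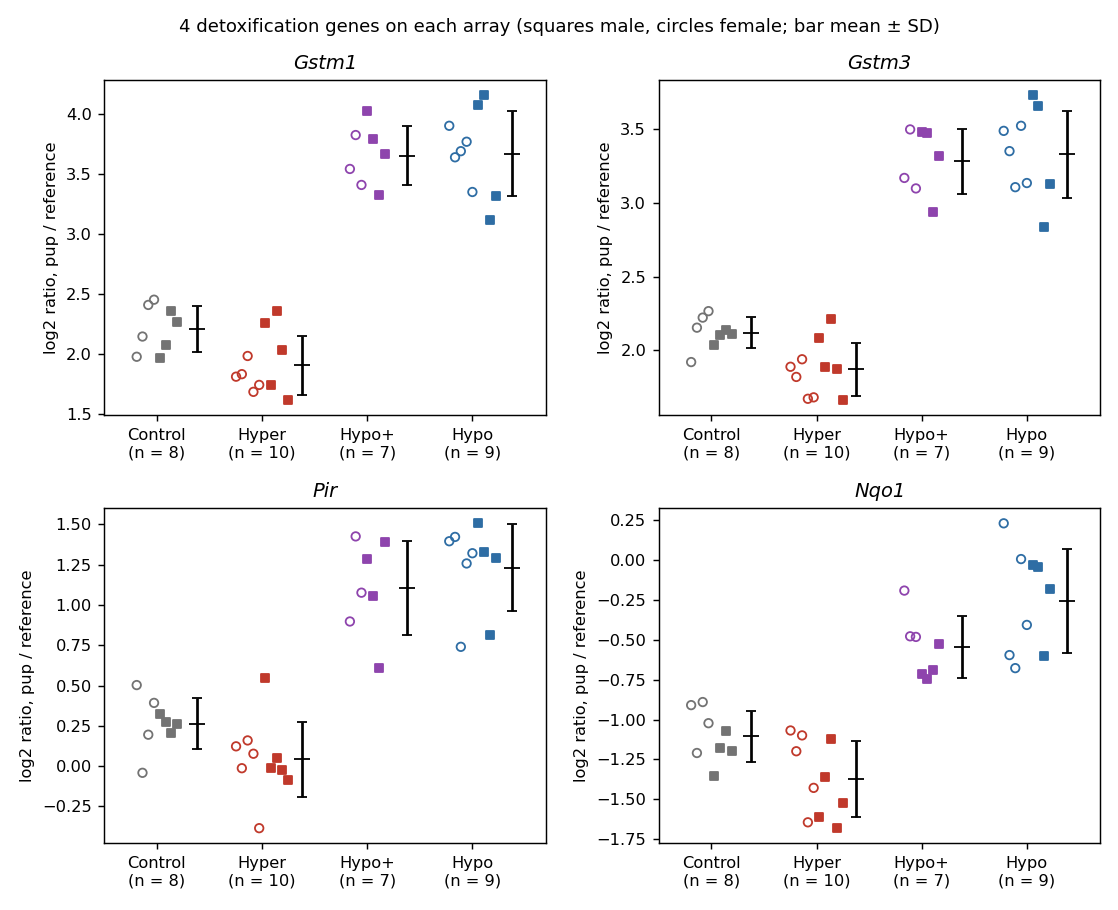
Log2 ratio of pup to reference of Gstm1, Gstm3, Pir and Nqo1 on each of 34 arrays in 4 groups (squares male, circles female; bar mean ± SD). In all 4 genes the 7 Hypo+ arrays lie above the 10 Hyper arrays, and the Hypo arrays lie beside the Hypo+ arrays.

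The neighbours of these genes differed less. Gstm4 was higher by 0.32 (adjusted p = 0.0226), while Gstm2 (0.44, adjusted p = 0.0541), Gstm6 (0.25), Gstm7 (0.13) and Gstm5 (0.05) were not called. Thus 3 of 7 mu-class members were called, all higher (42.9%, against 1.67% of all genes called higher), and the list's median was 0.32. Since 2 of the 3 are the marker genes given with the comparison, this share is not evidence about the family. The remaining call, Gstm4, was lost within slides (0.23, adjusted p = 0.332) and under median centring (0.19, adjusted p = 0.552). It was also lost without both arrays of the slide that held no Hyper array (0.30, adjusted p = 0.107). These genes are close copies of each other, and how far their probes bind related transcripts was not tested. Of the 14 other transferases, 4 were called, also all higher (28.6%, against the same 1.67%). Gstp1, the pi-class enzyme, was 0.05 to 0.42 in Hypo+ and -0.58 to -0.12 in Hyper, a difference of 0.55 (adjusted p = 0.000369). Gstt2 of the theta class differed by 0.49 (adjusted p = 0.00131), likewise without overlap of the groups. Gsta4, which handles products of lipid peroxidation, differed by 0.18 (adjusted p = 0.0405). Of the microsomal Mgst1, 1 probe was called (0.38, adjusted p = 0.000116) and a brighter probe was not (0.25, adjusted p = 0.109). Under median centring 0 of these 14 were called and their median was 0.0074 against 0.23, and within slides 1 was called.

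Known NRF2 targets outside the transferases were higher as well: 13 of 27 were called (48.1%, against 1.67% of all genes called higher), none lower, with a median difference of 0.26 against 0.001 over all genes. Nqo1, a quinone reductase, was -0.75 to -0.19 in Hypo+ (median -0.53) and -1.68 to -1.07 in Hyper (median -1.39). This gave a difference of 0.84 (SE 0.11, adjusted p = 5.63e-05) with no overlap. Aox1, an aldehyde oxidase, was 0.67 to 2.09 in Hypo+ (median 0.99) and -0.09 to 0.44 in Hyper (median 0.05), a difference of 1.06 (SE 0.15, adjusted p = 0.00024). Srxn1, which restores oxidized peroxiredoxins, differed by 0.54 (SE 0.07, adjusted p = 3.13e-05). Again the groups did not overlap in either gene. The efflux pump gene Abcc3 differed by 0.90 (adjusted p = 0.000449), although a weaker probe of it did not pass (0.17, adjusted p = 0.0942). The epoxide hydrolase Ephx1 differed by 0.91 (adjusted p = 0.0124) and the carbonyl reductase Cbr1 by 0.63 (adjusted p = 0.00128). Smaller differences, between 0.30 and 0.41, were called for Gclc (the first enzyme of glutathione synthesis), Txnrd1 (thioredoxin reductase), Cbr3, Abcc4, Akr1b8, Fth1 (ferritin heavy chain) and Sqstm1 (an autophagy receptor). Further probes of Srxn1 (0.24 and 0.21) and of Abcc4 (0.00) were not called. Other members of the list were not called, among them Hmox1 (0.08), Gclm (0.09), Slc7a11 (0.01), Taldo1 (-0.19) and G6pdx (-0.17). The transcripts of NRF2 itself (Nfe2l2, -0.07, 95% interval -0.22 to 0.08) and of Keap1 (0.23, adjusted p = 0.0973) were not called either.

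As a mean over the list's 27 genes, each Hypo+ array (0.05 to 0.29) lay above each Hyper array (-0.29 to -0.12). The number of called members fell to 8 without Hypo+ female 601, to 7 without the 2 Hypo+ arrays of the slide that held no Hyper array, to 5 within slides, and to 0 when arrays were centred on their median in place of loess, where the list's median was 0.07. Nqo1 differed by 0.64 under median centring (adjusted p = 0.153) and Aox1 by 0.86 (adjusted p = 0.109). Ephx1 differed by 0.73 under median centring (adjusted p = 0.301) and by 0.67 within slides (adjusted p = 0.305). It was higher in the Hypo+ array on 3 of the 5 slides.

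Pir, which encodes pirin and is also a known NRF2 target, was not on the list but stood among the 15 largest differences. Its level was 0.61 to 1.42 in Hypo+ (median 1.08) and -0.38 to 0.55 in Hyper (median 0.02), without overlap, and the difference was 1.06 (SE 0.12, adjusted p = 1.62e-06). Over the 34 arrays the 5 probes with the highest Pearson correlation with Gstm1 were those of Gstm3 (r = 0.99), the second Gstm1 probe (0.98), Pir (0.93), Srxn1 (0.93) and Mgst1 (0.92). These values describe 34 arrays of 4 groups that share the reference RNA. The carboxylesterase Ces1f, a hydrolase of esters in the endoplasmic reticulum, was 2.45 to 3.40 in Hypo+ (median 2.85) and 1.24 to 2.47 in Hyper (median 1.72), which overlapped at the edge. It differed by 1.14 (SE 0.18, adjusted p = 0.000425). The targets of CAR and PXR, receptors for drugs and other foreign compounds, were called in 3 of 21 cases, all higher (14.3%, against 1.67% of all genes). The called ones were Por (0.39), the reductase that serves the cytochromes P450, Alas1 (0.37), the first enzyme of haem synthesis, and Nr1i3 (0.34), which encodes CAR. Alas1 passed narrowly (adjusted p = 0.0492) and was called in 3 of 18 alternatives and in 5 of 17 fits with an array left out. The list's cytochrome genes Cyp2b10 (0.18, 95% interval -0.18 to 0.55) and Cyp3a11 (0.21, 95% interval -0.09 to 0.52) were not called. Within slides and under median centring 0 of the 21 were called. Outside the list, Cyp3a44 was among the lowest in Hypo+ by 1 probe (-1.03, adjusted p = 0.0178) but not by its other probe (0.20, adjusted p = 0.584).

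Many of the genes described so far were also high in Hypo, among them Gstm1, Gstm3, Nqo1, Pir and Ces1f. Gstm1 was 1.44 above Control in Hypo+ (SE 0.13), 1.46 above in Hypo (SE 0.13) and 0.30 below in Hyper (-0.30, SE 0.12), where all 3 values rest on the same Control arrays. The corresponding values of Gstm3 were 1.16, 1.21 and -0.25. Nqo1 stood at 0.57 in Hypo+, 0.84 in Hypo and -0.27 in Hyper, and Pir at 0.84, 0.97 and -0.22. Ces1f was 1.16 above Control in Hypo+, 1.49 in Hypo and 0.02 in Hyper. In these 5 genes the Hypo+ value stood nearer to that of Hypo than to that of Hyper, and the difference between Hypo+ and Hypo was -0.02 for Gstm1 and -0.05 for Gstm3. Aox1 (1.15), Ephx1 (1.26), Cbr1 (0.69), Srxn1 (0.68), Gstp1 (0.64), Abcc3 (0.60) and Gstt2 (0.56) also stood above Control in Hypo. The mean of the NRF2 list was 0.20 in Hypo, 0.13 in Hypo+, -0.19 in Hyper and -0.14 in Control. Some other called genes had another order. Por stood at 0.22 in Hypo+, -0.14 in Hypo and -0.17 in Hyper relative to Control, and Sqstm1 at 0.0075, 0.09 and -0.29.

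**Figure D3:**
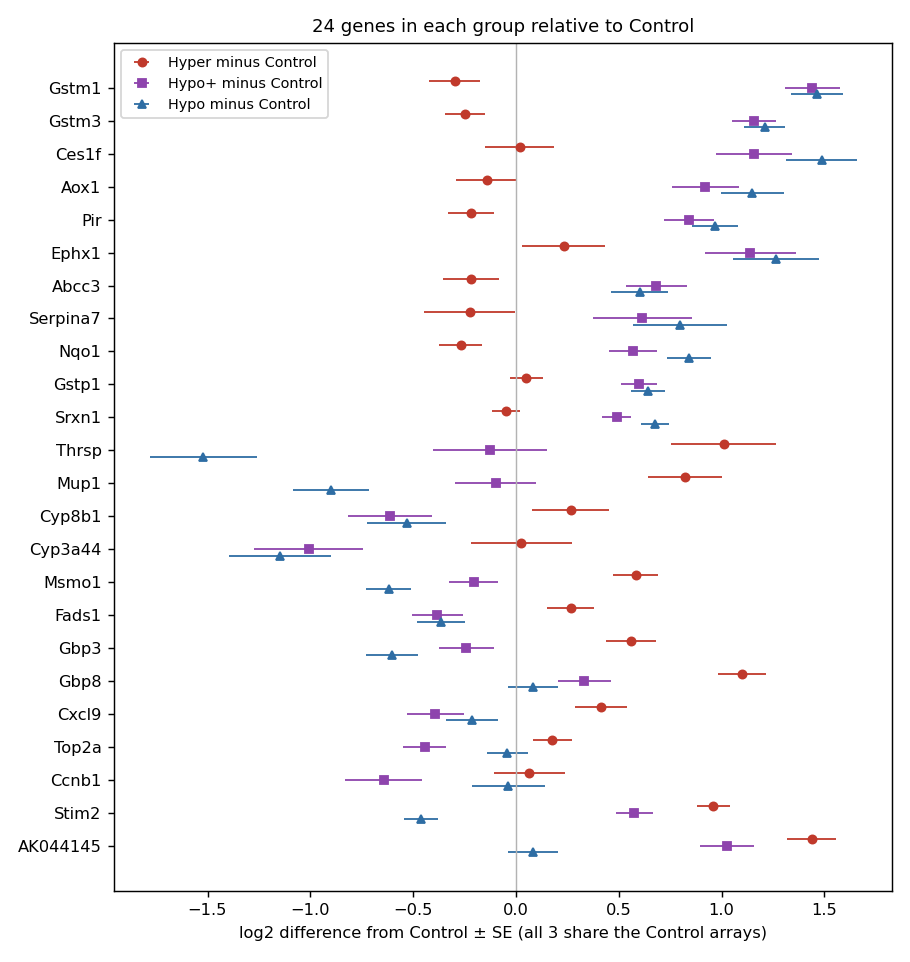
Log2 difference from Control ± SE of 24 genes in Hyper, Hypo+ and Hypo; the 3 values of a gene share the 8 Control arrays. Gstm1 is at 1.44 in Hypo+ and 1.46 in Hypo, Thrsp is at 1.01 in Hyper, -0.13 in Hypo+ and -1.52 in Hypo, and Top2a is at 0.18, -0.44 and -0.04 in the same order.

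Genes of DNA replication and mitosis were lower in Hypo+. All 31 measured members had a difference below 0, 25 of them were called (80.6%, against 2.53% of all genes called lower), and the median was -0.41. Top2a, the topoisomerase that untangles replicated chromosomes, was -2.69 to -2.02 in Hypo+ (median -2.34) and -2.25 to -1.35 in Hyper (median -1.74). The groups overlapped at the edge and differed by -0.62 (SE 0.10, adjusted p = 0.000449). A dimmer probe of Top2a gave -0.10 (adjusted p = 0.51). Among the subunits of the replicative helicase, Mcm3 differed by -0.36 (SE 0.06, adjusted p = 0.000449), and Mcm2, Mcm4, Mcm5, Mcm6 and Mcm7 by -0.25 to -0.38. Cyclin genes were lower too. Ccnb1, the mitotic cyclin, was -2.76 to -1.87 in Hypo+ (median -2.44) and -2.59 to -1.22 in Hyper (median -1.48), a difference of -0.71 (adjusted p = 0.0216). Ccne1 of the G1/S transition differed by -0.59 (adjusted p = 0.00726). The spindle checkpoint kinase Bub1b differed by -0.45 (adjusted p = 0.00194) and the mitotic kinesin Kif11 by -0.36 (adjusted p = 0.00356). E2f8, a repressor of the E2F family, was 0.93 to 2.02 in Hypo+ and 1.39 to 3.35 in Hyper. It differed by -0.89 (SE 0.21, adjusted p = 0.0163), by 1 probe of the 2 measured. Second probes of Cdk1 (-0.01), Kif11 (-0.06), Ccne1 (-0.21), E2f1 (-0.19) and Cdc6 (-0.23) were not called. Shcbp1, a gene of dividing cells outside the list, differed by -0.85 (adjusted p = 0.00548). The 6 members that were not called, Ccnb2, Ccnd1, Cdc20, Birc5, E2f7 and Cdt1, ranged from -0.58 to -0.18.

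The list's mean was lowest in Hypo+ but overlapped with Hyper. It was -1.48 ± 0.23 (SD, n = 7) in Hypo+, -1.05 ± 0.15 (SD, n = 10) in Hyper, -1.09 in Control and -1.18 in Hypo. Hypo+ female 601 had the lowest mean (-1.84), followed by males 761 (-1.64) and 363 (-1.62). The other 4 Hypo+ arrays (-1.40 to -1.18) lay within the Hyper range of -1.40 to -0.85. The calls leaned on these arrays: 10 members were called without female 601, 12 without male 761, 16 without male 363 and 6 without both arrays of the slide that held no Hyper array (601 and 363). Within slides 0 were called, with a median of -0.20, and under median centring 0 were called, with a median of -0.58.

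**Figure D4:**
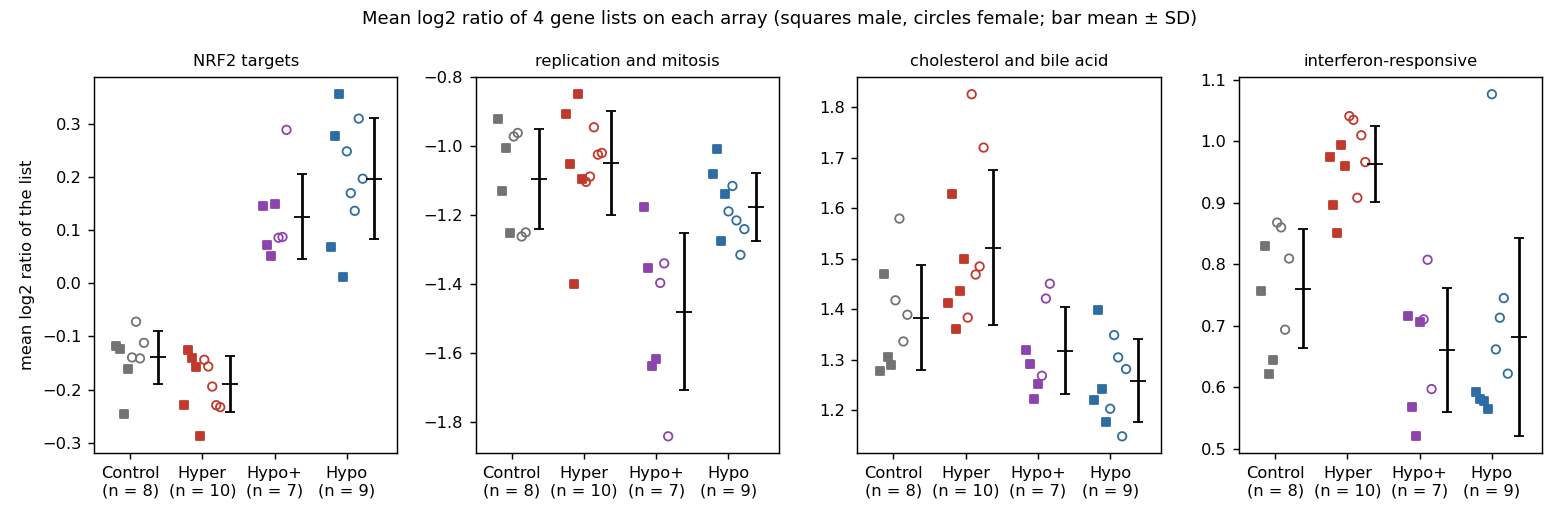
Mean log2 ratio of 4 gene lists on each of 34 arrays (squares male, circles female; bar mean ± SD). The NRF2 targets are higher and the interferon-responsive genes lower on every Hypo+ than on every Hyper array, whereas the replication list overlaps (-1.84 to -1.18 in Hypo+ and -1.40 to -0.85 in Hyper).

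Genes of cholesterol synthesis were lower in Hypo+. Of 27 members of the cholesterol and bile acid list, 13 were called, all lower (48.1%, against 2.53% of all genes called lower). The list's median was -0.26, and 10 of the 27 had a difference above 0. In the synthesis pathway the called genes included Hmgcs1 (-0.47), which makes the precursor of mevalonate, Mvk (-0.26), Fdps (-0.48), Sqle (-0.49), Cyp51 (-0.57), Dhcr7 (-0.54) and, by a second probe, Lss (-0.45). The brightest probe of Lss gave -0.10 and was not called. Fdps had the smallest adjusted p of the list (0.000449). Srebf2, the factor that drives the pathway, differed by -0.43 (adjusted p = 0.0095) by 1 probe and by 0.05 by a second. Msmo1, an enzyme of the same pathway outside the list, was -2.03 to -1.44 in Hypo+ and -1.44 to -0.48 in Hyper, so that the groups met at the edge, and differed by -0.79 (SE 0.11, adjusted p = 0.000185). Cyp8b1, which makes cholic acid, was 1.57 to 3.07 in Hypo+ (median 1.91) and 2.68 to 3.79 in Hyper (median 3.03). It differed by -0.88 (SE 0.19, adjusted p = 0.00864). Cyp7a1, the rate-limiting enzyme of bile acid synthesis, gave -0.39 (95% interval -0.82 to 0.04) and was not called. The sterol exporters Abcg5 (0.20) and Abcg8 (0.35) were not called.

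Relative to Control, Msmo1 was at 0.58 in Hyper, -0.21 in Hypo+ and -0.62 in Hypo, and Cyp8b1 at 0.27, -0.61 and -0.53. The number called in the list was 1 under median centring, with a median of -0.36, and 2 within slides, with a median of -0.26.

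Among lipogenic genes 6 of 21 were called, all lower (28.6%, against 2.53% of all genes called lower), and the median was -0.08. Thrsp, also named Spot 14, a classical thyroid hormone response gene of liver, was 0.97 to 3.37 in Hypo+ (median 2.16) and 2.56 to 4.06 in Hyper (median 3.28). The groups overlapped, and the difference was -1.14 (SE 0.27, adjusted p = 0.0134). Thrsp stood 1.01 above Control in Hyper, -0.13 from it in Hypo+ and -1.52 in Hypo. The desaturase Fads1 differed by -0.65 (SE 0.12, adjusted p = 0.00204) with no overlap. Fasn, fatty acid synthase, differed by -0.46 (adjusted p = 0.0172), the elongases Elovl6 by -0.42 and Elovl5 by -0.25 (a second probe gave -0.06), and the desaturase Fads2 by -0.35. Other lipogenic genes known to respond to the hormone were not called, such as Me1 (-0.02, 95% interval -0.19 to 0.15), Acaca (-0.02, 95% interval -0.15 to 0.12) and Scd1 (0.34, 95% interval -0.14 to 0.81). Mup1, a major urinary protein gene of a multigene family whose copies the probe may share, was 1.09 to 1.85 in Hypo+ and 1.47 to 2.71 in Hyper. Its difference was -0.92 (SE 0.19, adjusted p = 0.00498), and it stood at 0.82 in Hyper, -0.10 in Hypo+ and -0.90 in Hypo relative to Control. Of the 6 called lipogenic genes, Fads1 alone was called within slides and under median centring, and 2 (Fads1 and Fads2) were called without both arrays of the slide that held no Hyper array, where Thrsp differed by -1.15 (adjusted p = 0.0524). Within slides Thrsp differed by -1.06 (adjusted p = 0.146), and Mup1, also not called there, by -0.70 (adjusted p = 0.189).

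Interferon-responsive and guanylate-binding genes were lower in Hypo+. Of 27 members 15 were called, all lower (55.6%, against 2.53% of all genes called lower). A difference below 0 was seen in 25, and the median was -0.31. Irgm1 counted as called by a probe other than its brightest, which gave -0.17 and was called in 0 of 18 alternatives. Gbp3, a GTPase of cell defence, was 0.31 to 1.03 in Hypo+ (median 0.57) and 0.99 to 1.82 in Hyper (median 1.41). It differed by -0.80 (SE 0.13, adjusted p = 0.000449). Gbp8 was 0.94 to 1.73 in Hypo+ and 1.68 to 2.80 in Hyper and differed by -0.77 (SE 0.12, adjusted p = 0.000449). A second Gbp8 probe gave -0.25 (adjusted p = 0.0433). Of their family, Gbp2 (-0.45), Gbp6 (-0.47) and Gbp7 (-0.38) were also called. The immunoproteasome subunits Psmb8 (-0.31) and Psmb9 (-0.33) and the peptide transporter Tap1 (-0.33), which prepare antigen for presentation, were lower together. Isg15, a ubiquitin-like modifier, differed by -0.43 (adjusted p = 0.0172), Irf7 by -0.40, the GTPase Igtp by -0.43 and the RNA sensor gene Oas1a by -0.32. Cxcl9, a chemokine induced by interferon gamma and not on the list, was 1.07 to 1.95 in Hypo+ and 1.81 to 2.73 in Hyper and differed by -0.81 (SE 0.13, adjusted p = 0.0005).

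The mean of the interferon list was 0.52 to 0.81 on Hypo+ arrays and 0.85 to 1.04 on Hyper arrays, which did not overlap. It was 0.76 on average in Control and 0.68 in Hypo. Relative to Control, Gbp3 stood at 0.56 in Hyper, -0.24 in Hypo+ and -0.60 in Hypo, and Gbp8 at 1.1, 0.33 and 0.08. The number called was 9 without Hypo+ female 601, 8 without both arrays of the slide that held no Hyper array, 2 within slides and 1 under median centring. The list's median was -0.31 within slides and -0.38 under median centring.

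Genes known to respond to thyroid hormone in liver did not share 1 direction in this comparison. Of 30 such genes 4 were called, all lower (13.3%, against 2.53% of all genes called lower), and the median was -0.04. The 4 were Thrsp, Fasn, the mitochondrial carrier Ucp2 (-0.25) and, by 1 of its 2 probes, the calcium pump Atp2a2 (-0.21). The number called was 2 without Hypo+ female 601, 7 without Hypo+ female 543, 1 without both arrays of the slide that held no Hyper array, and 0 within slides and under median centring. Against the shared Control arrays the list's median was 0.11 in Hyper, 0.12 in Hypo+ and -0.13 in Hypo. Dio1, the deiodinase that makes T3 in liver, differed by -0.19 (95% interval -0.55 to 0.17), and the transcription factor Klf9 by 0.07 (95% interval -0.22 to 0.36). The study had also picked 28 genes on these same samples for a pattern of direct regulation, which is not independent evidence of their direction. Their median difference between Hypo+ and Hyper was -0.03, and their range was -0.41 to 0.31. Of the 28, 1 was called, a share near that of all genes (3.57%, against 4.19%). That gene, Stim2, a calcium sensor of the endoplasmic reticulum, was 0.63 to 1.24 in Hypo+ and 1.07 to 1.45 in Hyper and differed by -0.38 (SE 0.08, adjusted p = 0.00917). A second Stim2 probe gave -0.15 (adjusted p = 0.478). Leaving out 1 array left 1 to 3 of the 28 called, with 3 called without Hypo+ male 454 and 2 without Hypo+ 546 or 543 or without Hyper 784, 498, 696 or 621, and 0 were called within slides and under median centring. The medians of these 28 genes against Control were 0.47 in Hyper and 0.46 in Hypo+.

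Among 18 genes of hormone receptors, deiodinases, carriers and transporters, 3 were called (16.7%, against 4.19% of all genes). Serpina7, the thyroxine-binding globulin of plasma, was 3.70 to 4.94 in Hypo+ (median 4.08) and 2.81 to 3.97 in Hyper (median 3.62), with overlap. Its difference was 0.84 (SE 0.23, adjusted p = 0.0345), and it was called in 8 of 18 alternatives and in 10 of 17 fits with an array left out. Thra, a thyroid hormone receptor gene, was higher by 0.27 (adjusted p = 0.0248), with a second probe at 0.12, whereas Thrb gave -0.01 (95% interval -0.11 to 0.08). The transporter Slc16a10 was lower by 1 probe (-0.33, adjusted p = 0.037), and its other probes gave 0.03 and 0.02. Leaving out 1 array left 1 to 4 of the 18 called. It was 1 without Hypo+ male 363 or female 763, or without Hyper males 864, 696 or 583 or female 499. Within slides and under median centring it was 0.

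The remaining lists held few calls. For fatty acid oxidation and for gluconeogenesis and glycogen the share called was near that of all genes (7.14% and 5%, against 4.19%). Of 28 genes of fatty acid oxidation, 2 were called, both higher, among them Crat (0.31), which transfers acyl groups to carnitine. The list's median was 0.17, and -0.0076 under median centring, and 0 were called without Hypo+ female 601. Of 20 genes of gluconeogenesis and glycogen, 1 was called, Ugp2, by the second of its probes (0.33, adjusted p = 0.00826), and 2 were called without Hypo+ male 546 or Hyper female 585. Of 25 clock and glucocorticoid-responsive genes 3 were called (12%, against 4.19% of all genes). Dbp (0.44, adjusted p = 0.0172) and Tef (0.49, adjusted p = 0.0303), related clock output factors, were higher in Hypo+, and Cry1 (-0.33, adjusted p = 0.0213), a repressor of the clock, was lower. A second probe of Cry1 (-0.11) and the other 2 of Tef (0.11 and 0.09) were not called. Of the 25 clock and glucocorticoid-responsive genes 1 was called without Hypo+ female 601 and 1 without male 761. Within slides, under median centring and without both arrays of the slide that held no Hyper array, 0 members of these 3 lists were called.

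Some of the largest differences came from genes that varied widely among the Hypo+ pups. Dmbt1, which encodes a secreted mucin-like protein of epithelia, had the largest difference of all genes (2.59, SE 0.61, adjusted p = 0.0144). Its level was 5.17 in male 546, 4.91 in male 454, 4.34 in female 763, 2.91 in male 761, 1.31 in female 543, 0.12 in female 601 and 0.03 in male 363, against -0.14 to 0.29 in Hyper. Control arrays also spread, from -0.07 to 3.55. Krt19, a keratin of bile duct cells, was -0.97 to -0.84 in Hypo+ 546, 454 and 763 and -2.52 to -2.05 in the other 4, with Hyper at -2.69 to -2.21. Its difference was 0.75 (adjusted p = 0.0191), and its call was lost without any of those 3 arrays. Reg1, a secreted protein of pancreatic acinar cells, was 3.04 to 3.59 in Hypo+ 543, 763, 454 and 546 and 0.22 to 0.33 in the other 3, with Hyper at 0.06 to 0.62, and was not called (1.69, adjusted p = 0.305). Lgals4, a galectin of epithelial cells, was 1.62 to 2.68 in Hypo+ and 1.08 to 1.73 in Hyper, a difference of 0.81 (adjusted p = 0.000356). Retnla (0.94, adjusted p = 0.0407), the calcium-binding S100g (0.76, adjusted p = 0.0376) and the transcript U42467 (0.85, adjusted p = 0.0471) were called higher as well, and were called in 6, 8 and 6 of 17 fits with an array left out.

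**Figure D5:**
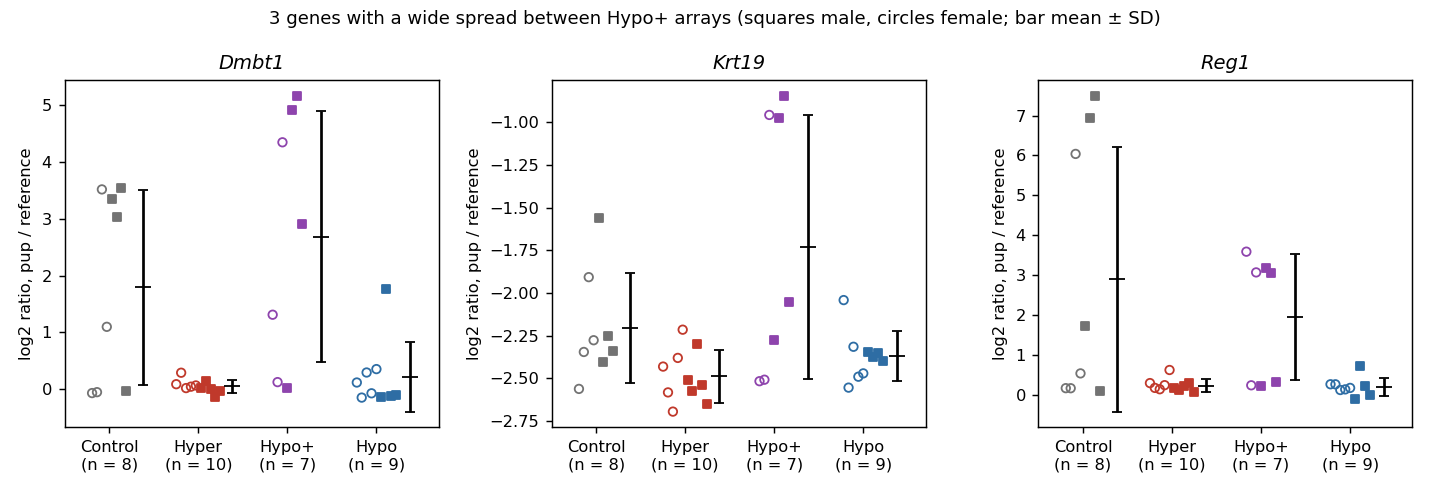
Log2 ratio of pup to reference of Dmbt1, Krt19 and Reg1 on each of 34 arrays in 4 groups (squares male, circles female; bar mean ± SD). Dmbt1 runs from 0.03 to 5.17 among the Hypo+ arrays and from -0.14 to 0.29 among the Hyper arrays.

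At the low end, 2210407C18Rik, whose function is not given here, was 0.96 to 1.70 in Hypo+ and 1.77 to 3.31 in Hyper, without overlap (-1.34, SE 0.20, adjusted p = 0.00034). The transcript NM_133245 differed by -1.33 (adjusted p = 0.00358). Vpreb1, the surrogate light chain of B cell precursors, differed by -1.1 (adjusted p = 0.0152), and Rhd, a blood group protein of red cells, by -0.80 (adjusted p = 0.00971), the latter well above background on 5 Hypo+ and 9 Hyper arrays. H2-Q1, a class I histocompatibility gene of a family with close copies, differed by -0.81 (adjusted p = 0.017) by 1 probe and by -0.22 by the other.

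The arrays and their cell type markers were compared as a check. The tissue was liver by its markers: the mean of 10 hepatocyte genes was 5.16 ± 0.31 (SD, n = 7) in Hypo+ and 4.86 ± 0.39 (SD, n = 10) in Hyper (exact permutation test, two-sided, p = 0.115). All 10 were above 0 in their difference, 0 were called by limma (2 at an unadjusted p under 0.05), and their median of 0.32 was -0.02 from the Cy5 channel alone and 0.06 under median centring. The 14 pancreatic acinar genes had a mean of 0.65 to 2.27 in Hypo+ and 0.53 to 0.78 in Hyper (p = 0.00535, adjusted p = 0.0695 over 13 measures by the exact permutation test), and 0 were called (1 at an unadjusted p under 0.05). Of 6 bile duct genes only Krt19 was called (means -2.01 to -1.36 and -2.12 to -1.81, exact p = 0.013, adjusted p = 0.0842). Of 10 erythroid genes Hemgn was called lower (-0.62, adjusted p = 0.00964), of 9 lymphocyte genes Vpreb1, and of 10 stellate cell genes Dcn was called higher (0.38, adjusted p = 0.0197), which was lost without Hypo+ female 601 or male 363. None of 10 macrophage, 11 neutrophil and 10 endothelial genes was called, with 2, 2 and 0 at an unadjusted p under 0.05. Over all genes 6009 of 33236 had a probe with an unadjusted limma p under 0.05. In bulk RNA, fewer cells of a type and less RNA per cell cannot be told apart, and the part of these cells in the differences was not tested. The median Cy5 signal (162 and 169, exact p = 0.382) and the SD of the log2 ratio (1.02 and 1.00, exact p = 0.205) gave no difference past the threshold. Probes with a Control level above 4 had a median difference of 0.18 (515 probes), against -0.02 to 0.04 in the ranges below.

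The difference between the injected groups was also compared between the sexes. In 1 fit of 8 groups, 0 of 41174 probes had an interaction of sex and treatment by limma after adjustment (smallest adjusted p = 1). An unadjusted p under 0.05 was seen in 1081 of the 41174, less than the share of 0.05 that chance alone would give. Gstm1 differed by 1.69 in males and 1.78 in females, Gstm3 by 1.36 and 1.45, Thrsp by -0.91 and -1.38, Gbp3 by -0.86 and -0.74, and Top2a by -0.45 and -0.82. Fitted alone, the males (4 against 5) gave 2 called genes, Gstm1 and Gstm3, and the females (3 against 5) gave 35.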

How the data were processed

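Liver RNA of 34 pups was measured on Agilent 4 × 44 k arrays, 1 pup per array, against a universal mouse reference with no dye swap. The authors deposited scanner files with the median signal intensity of each channel, not background-subtracted or dye-normalized, and a log10 ratio computed by the scanner software from background-subtracted, dye-normalized signals. They also deposited their own log2 ratios; the methods name loess normalization, and that these values are its output is inferred. By the methods, 2 arrays of each sex had been removed as outliers before deposit. They are not analysed here.

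Here the log2 ratio of median signals was normalized by loess within each array, without control and outlier spots (77 to 212 per array), and spots of a probe were averaged (limma 3.58.1, R 4.3.3). Over the 17 arrays compared, median Cy5 signals were 146 to 199 and median Cy3 signals 67 to 100, 60.8% to 79.4% of probes were well above background in Cy5, and 0 Cy5 spots were saturated. Each array's median correlation with its own group was 0.967 to 0.980. Precision is limited by how many arrays each group holds. Of 33541 systematic names in the files, 16806 were named by RefSeq accession (GRCm38.p6), 78 by the study's tables, and 16657 kept their identifier, giving 33236 genes. No column of per-sample values was left unmapped.

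All 34 arrays were fitted together with 4 treatment groups and sex as a covariate, and Hypo+ minus Hyper was taken as a contrast with Benjamini-Hochberg adjustment over 41174 probes and a threshold of 0.05. The study used permuted Fs statistics in each sex apart, to remove correlation that came from a shared dam. In place of these limma was used, with each sex alone as an alternative. The main fit pooled the sexes without a term for litter or slide. Any littermates, and the arrays of a slide, therefore counted as independent in its p-values. With the inferred litter as a random block 1084 genes were called, all among the 1394. With the arrays of an inferred litter averaged 1414 were called. Promoter windows came from RefSeq tables of GRCm38.p6. The fits were tested on simulated data with independent noise, which cannot show how they behave with correlation within slides or litters. Array measures were compared by exact permutation over 19448 regroupings, two-sided, in numpy 2.4.6.

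Genes named are Gstm1 and Gstm3, the 15 called genes highest and the 15 lowest in Hypo+, every called list member and, from each list, the 2 members with the smallest p. List values come from the gene's probe with the highest mean Cy5 signal, a few members are named to show what was not called, and other mu-class genes complete the family. Some genes that the rule took up are not reported here, though counts and medians of the lists include them. The members of the comparison and the lists were chosen with earlier results of these data known. Alternatives covered the background correction, normalization, the filter on dim probes, averaging of probes, slide, scan batch and inferred litter, each sex alone, the 17 arrays alone, and each array left out. After seeing the data, 2 more were added: leaving out both arrays of the slide that held Hypo+ and no Hyper array, and scaling all arrays to 1 spread.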

Additional observations from a re-analysis of the deposited data

Results flagged for a closer look

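Each named gene was examined for a single array far from the others of its group, by the gap to the next array as a share of the group's range. Of 258 gene and group combinations 17 passed, where chance alone gives about 1 in 20. All values are log2 ratios of pup to reference.

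Hyper male 498 stood out in 5 genes. It had the lowest level of the mitotic genes Ccna2 (-1.96, next -1.37), Ccnb1 (-2.59, next -1.89), Cdk1 (-1.62, next -1.15) and Aurka (-2.0, next -1.42), and the highest of the calcium pump Atp2a2 (1.64, next 1.28). Hyper female 499 was highest in the replication gene Cdc6 (-0.65, next -1.15) and lowest in the interferon-responsive Oas1a (-0.65, next -0.36). Hyper male 864 was highest in the red cell gene Epb42 (0.45) and the elongase Elovl6 (-0.78). Hyper female 621 was highest in the granzyme Gzma (1.78) and female 861 in Reg1 (0.62).

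Among Hypo+ arrays, male 761 was lowest in H2-Q1 (3.77) and Gbp8 (0.94), and female 601 was lowest in Igtp (1.38, next 1.83). Hypo+ male 454 was highest in Msmo1 (-1.44, next -1.82), male 546 in the keratin Krt7 (0.29, next -0.76) and male 363 in Srxn1 (-0.0012, next -0.20).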

How the results depend on the processing

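Under 18 alternatives, the 106 called genes taken up by the naming rule kept their direction in all 1908 combinations of gene and alternative and stayed called in 1224. Gstm1 (1.45 to 1.78) and Gstm3 (1.23 to 1.51) stayed called in all of them. The number of called genes (1394; 554 higher, 840 lower in Hypo+) moved more than 1.5 times under these: median centring in place of loess, 16 (6 higher, 10 lower); Cy5 channel alone, 767 (283, 484); slide as a fixed block, 725 (254, 471); the 17 arrays alone, 717 (292, 425); within slides that held both groups, 70 (24, 46); males alone, 2 (2, 0); females alone, 35 (13, 22); and without both Hypo+ arrays of the slide with no Hyper array, 469 (186, 283). Fewer arrays entered the last 5 of these. The cause under the others was not tested. Of the 16 genes called under median centring all were among the 1394, and of the 70 within slides 57 were. Leaving out 1 array gave 643 to 1774 called genes, 246 to 733 higher and 397 to 1113 lower, with Gstm1 at 1.68 to 1.80 and Gstm3 at 1.36 to 1.47.

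Directions turned for 10 genes, none of them called by the probe used. Under median centring these were Apob (-0.044), Stab1 (-0.0208) and Gstm5 (-0.1229), from the scanner's log ratio Ddx3y (-0.0034), and from Cy5 alone Apob (-0.1198). With the slide as a fixed block they were Uty (0.0077), Atp2a2 (0.0319), Gstm5 (-0.0107) and Gstm7 (-0.001), with the scan batch Uty (0.0188), and within slides Uty (0.0028), Gstm5 (-0.0488) and Gstm7 (-0.0019). With litters averaged they were Uty (0.0514) and Lss (0.0505), in males Lss (0.0379), in females Krt7 (-0.0442), Gbp9 (0.0255) and Gstm5 (-0.003). With 1 array left out Gbp9 lay between -0.0969 and 0.0094, the latter without Hypo+ male 454. Without both arrays of the slide that held no Hyper array, Atp2a2 turned (0.0382).

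The correlation of arrays was 0.24 within a slide and 0.10 within an inferred litter. The replicate numbers are animal numbers of which the groups share none, so that no block of replicate numbers could be fitted, and the pairing of arrays is that within the 5 slides above. Dim probes, such as Rhd and Hemgn, were not well above background on every array.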
